A study of Mus musculus with 1617 samples.

Results

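Single macrophages of the whole mouse brain late in embryonic development (E16.5) were set against those of an earlier stage (E12.5), both in days of gestation. The comparison took every library labelled as microglia of the whole brain at these ages, 272 of the 1617 cells of the series, of which 46.3% were from E16.5 and 53.7% from E12.5. Cells of both ages came from mice with no genotype, treatment or strain given in the labels, and had passed the same sort for the leukocyte antigen CD45, the macrophage antigens F4/80 and CD11b and absence of the monocyte antigen Ly6C. Each cell was captured on a microfluidic chip and sequenced as its own library with single reads. Values are in TPM, a unit of relative transcript abundance, which scale each gene by transcript length and each cell to the same total, so the reads behind a value are unknown. No embryo, litter or preparation is named. Each age was therefore treated as 1 sample whose cells are no replicates of it, and nothing was tested. Titles run without a break through each age, and the preparation cannot be told apart from the age.

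The macrophage label held in nearly all cells. Of 16 genes that mark macrophages in general, a median of 14 stood at 1 TPM or more at both ages. At least 8 were present in 99.2% of cells at E16.5 and 92.5% at E12.5, and the lowest cells held 6 and 2. The number of genes reaching 1 TPM per cell had a median of 4857.5 at E16.5 (range 380 to 7068) and 4646 at E12.5 (1250 to 6714). Mitochondrial genes took a median of 6.47% and 5.78% of a cell's TPM. Each age held cells of both sexes: Xist without Y-linked RNA at 10 TPM was found in 40 and 27 cells, and Y-linked RNA without Xist in 45 and 66.

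The values of the 2 ages differed in a way that touches very short genes. Of 1942 genes whose longest annotated transcript has 95 bases or fewer (transfer RNAs, microRNAs and other small RNAs), 449 were above 0 in at least 1 cell at E16.5 and 3 at E12.5. Genes under 100 bases summed to a median of 31703 TPM per cell at E16.5, 3.17% of the total, and to a median of 0 at E12.5. An example is mt-Ts1, a mitochondrial transfer RNA gene of 69 bases, at a mean of 32666 TPM in 97.6% of E16.5 cells and at 0 in every E12.5 cell (this gene was chosen after its values were seen). From 110 bases upwards the ages came closer, as the plot of detection by length shows. The cause was not tested, and it cannot be told apart from age. Results were therefore also computed without genes under 200 bases, with each cell scaled again to the same total.

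**Figure D1:**
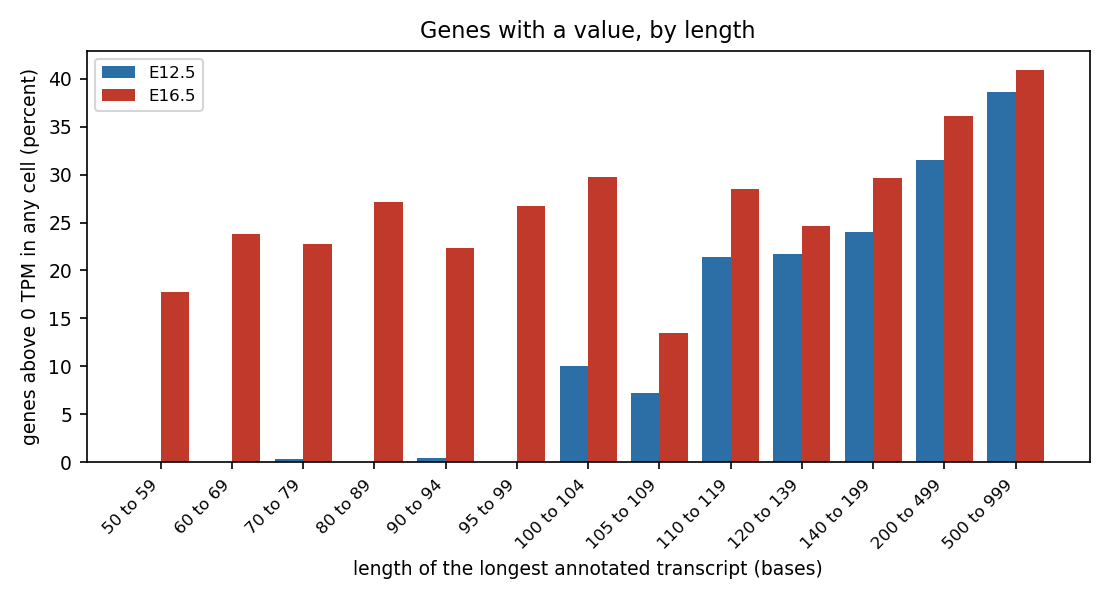
Percent of all genes in the table with a value above 0 TPM in at least 1 cell (y axis), by length of the longest annotated transcript in bases (x axis), for E12.5 (blue) and E16.5 (red). From 50 to 99 bases 17.7% to 27.1% of genes had a value at E16.5 and at most 0.407% at E12.5, below 50 bases none had a value at either age, while in the longest bin the ages stood at 40.9% and 38.6%.

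Macrophages seed the mouse brain from the yolk sac early in embryonic life. Those in the tissue become microglia, which depend on the growth factor receptor Csf1r and on TGF-beta signals and keep the transcription factor Sall1. Those at the meninges, vessels and choroid plexus become border-associated macrophages, known for the mannose receptor Mrc1 and the hyaluronan receptor Lyve1.

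Genes averaging at least 5 TPM at either age, 11797 in number, were taken as measured. It was called higher or lower at E16.5 when 2 measures both passed 1.5-fold the same way: the log2 ratio of mean TPM (1 TPM added to each mean), and the difference of mean log2(TPM + 1), in which each cell weighs more evenly. Below, "ratio" and "difference" name these 2 measures. By this rule 1222 genes (10.4%) were higher at E16.5 and 931 (7.89%) lower, so 56.8% of the called genes were higher. Over all measured genes the median ratio was 0.18 and the median difference -0.06. The balance of higher to lower depended on the scaling: 43.1% of calls were higher by the difference alone, 43.5% in cells with 2000 to 5000 genes, 39.4% with the 5 highest cells of each gene and age left out, and 44.97% after the ages were scaled to the median ratio, which moved that median to -0.01. Without genes under 200 bases 1082 genes were higher and 857 lower, 1005 and 856 of them shared with the calls above. List counts given below for other settings stand against these over all measured genes. By the ratio alone 4144 of 11797 were higher and 2608 lower, and by the difference alone 1473 and 1948. In cells with 2000 to 5000 genes 1040 and 1349 of 11394 were. With the 5 highest cells left out 970 and 1491 of 7329 were. After scaling to the median ratio 1065 and 1303 of 11989 were, and 989 and 865 of 11567 with values under 10 TPM set to 0.

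**Figure D2:**
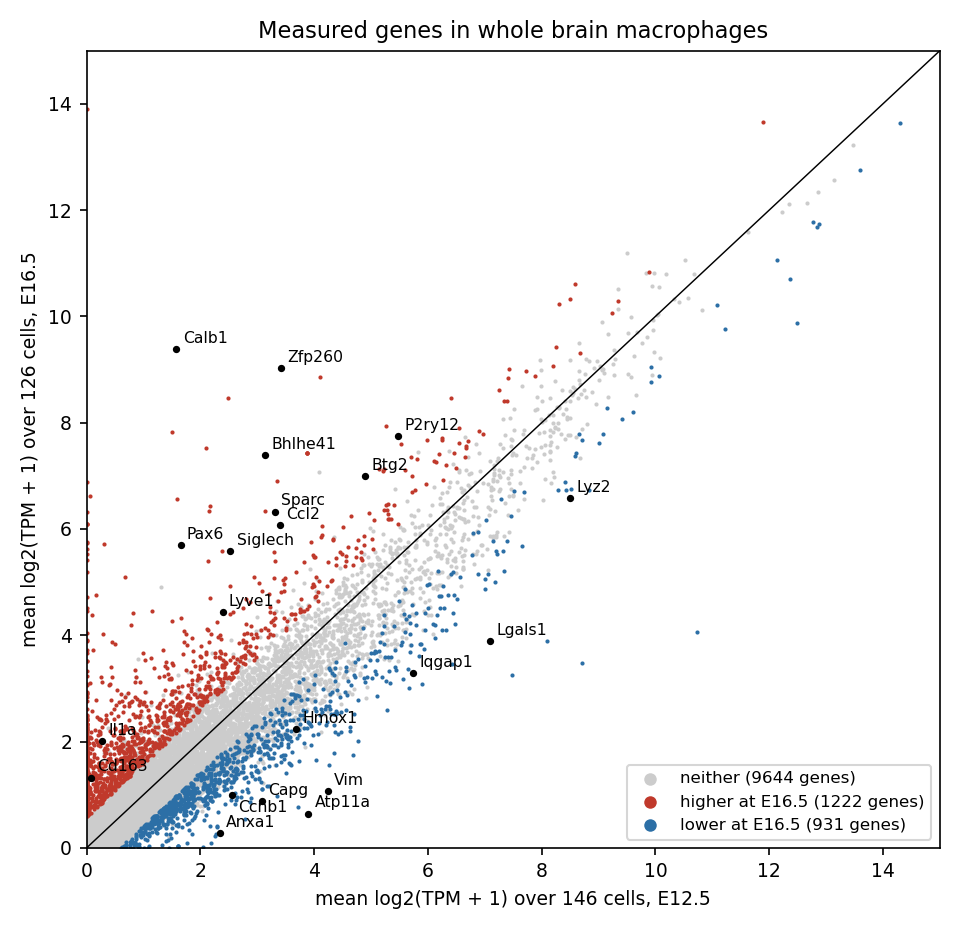
Each point is 1 of 11797 measured genes, placed by its mean log2(TPM + 1) over E12.5 cells (x axis) and E16.5 cells (y axis), red where called higher at E16.5, blue where lower and grey otherwise; the line marks equality. The 447 genes at 0 in every E12.5 cell have a median length of 89 bases, and genes named in the text are marked in black.

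Genes of the microglial programme stood higher at E16.5. Of 23 measured homeostatic microglia genes 14 were higher and 0 lower. They had a median ratio of 0.89 and a median difference of 1.05. P2ry12, the purinergic receptor with which microglia sense ADP (GRCm38 chromosome 3, 59216272 to 59262871, minus strand), ranged from 0 to 9161 TPM with a median of 246.6 at E16.5 and from 0 to 5201 with a median of 58.4 at E12.5. P2ry12 averaged 1330 and 422 TPM (ratio 1.65, difference 2.27). The ages overlapped over nearly the whole range, and P2ry12 reached 100 TPM in 61.9% of E16.5 and 44.5% of E12.5 cells.

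Siglech, a sialic acid-binding lectin, was at 1 TPM or more in 88.1% of E16.5 cells (95% exact interval 81.1 to 93.2, over cells only) and 54.1% of E12.5 cells (45.7 to 62.4), with a difference of 3.05. The largest differences of the list were those of Ltc4s, the leukotriene C4 synthase (3.22), Siglech, and Sparc, a matricellular glycoprotein (3.01).

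Not every microglial gene was called. Cx3cr1, the fractalkine receptor, averaged 1065 and 716 TPM (ratio 0.57, difference 1.03), Cst3, the protease inhibitor cystatin C, 3054 and 2159 TPM, and Trem2, a lipid-sensing receptor, 344 and 306 TPM with a difference of -0.60. Below, the marked cells are the 24 E12.5 and 3 E16.5 cells with S100a8, S100a9, Ngp, Ly6c2 or Ccr2 at 100 TPM or more. Cells with lower values of these genes were kept. Without the marked cells 10 of the 23 homeostatic genes were higher and 0 lower, against 1240 and 890 of 11729 over all measured genes.

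Some receptors and enzymes of purine signalling were higher, and most were not called. Of 20 measured purinergic and ion channel genes 6 were higher and 0 lower. Besides P2ry12 these included P2ry13, another ADP receptor (442 and 140.7 TPM, difference 1.77), Entpd1, which breaks down extracellular ATP (217.5 and 91.8 TPM, 1.59), and P2rx7, an ATP-gated channel (67.4 and 28.6 TPM, 0.72). P2ry6, the UDP receptor, was at 150 and 196.7 TPM and P2rx4 at 129.4 and 107.5 TPM, neither called. With values under 10 TPM set to 0, 3 of the 20 were called higher.

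Among 34 measured transcription factors of macrophages 11 were higher and 1 lower, with a median ratio of 0.52. Sall1, which maintains microglial identity, was at 1 TPM or more in 39.7% of E16.5 cells (31.1 to 48.8) and 10.96% of E12.5 cells (6.4 to 17.2), and at 100 TPM in 22 and 4 cells. Maf, a factor of mature tissue macrophages, was broadly expressed at both ages, with medians of 800 and 456 TPM (difference 1.58). Tcf7l2 and Tcf4, partners of Wnt and E-protein signalling, averaged 183.9 and 85.99 TPM and 258.99 and 108.03 TPM. Id2, an inhibitor of DNA-binding helix-loop-helix factors, averaged 404 and 208.1 TPM.

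Bhlhe41, a repressor of the circadian and macrophage programmes, gave the largest difference of the list, 4.25. Its range was 0 to 15842 TPM with a median of 140.8 at E16.5 and 0 to 22738 with a median of 3.04 at E12.5. The share at 1 TPM or more was 99.2% against 60.3%, so nearly every E16.5 cell carried a value. Spi1, the factor PU.1, averaged 47.4 and 46.7 TPM (difference -0.38), and Zeb2 215.2 and 197.8 TPM.

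TGF-beta receptors were also higher. Of 20 measured TGF-beta and SMAD genes 6 were higher and 1 lower, or 3 and 2 in cells with 2000 to 5000 genes. Tgfbr1 and Tgfbr2, the signalling receptor pair, averaged 176.7 and 83.5 TPM (difference 1.47) and 80.7 and 32.4 TPM (1.09). Pmepa1, a target and feedback inhibitor of the pathway, averaged 30.4 and 4.97 TPM. Smad2, a signal transducer, was the lower member at 21.5 and 39.8 TPM, and Nrros, which presents latent TGF-beta on microglia, averaged 224.7 and 292 TPM without a call.

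Border-associated genes differed among themselves. Of 19 measured members 6 were higher and 1 lower, with a median ratio of 0.81 and a median difference of 0.39. After scaling to the median ratio 3 were higher and 1 lower. In cells with 2000 to 5000 genes 4 of 18 were higher and 2 lower, with a median difference of -0.15. Lyve1 (chromosome 7, 110850607 to 110863239, minus strand) had a median of 2.09 TPM at E16.5 and 0 at E12.5, a highest cell of 5702 and 4089 TPM, and means of 615 and 192.9 TPM (difference 2.04). Cd163, the haptoglobin-haemoglobin scavenger receptor, was at 1 TPM or more in 23.8% of E16.5 cells (16.7 to 32.2) and 2.7% of E12.5 cells (0.8 to 6.9), with highest cells of 1186 and 18.96 TPM. Cp, the ferroxidase ceruloplasmin, averaged 792 and 281 TPM, with a single E16.5 cell at 57189 TPM.

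Pf4 and F13a1 reached 100 TPM in a smaller share of E16.5 cells, and those cells held them at a higher level. F13a1, the coagulation factor XIII subunit A (chromosome 13, 36867178 to 37050244, minus strand), reached 100 TPM in 54 cells at E16.5 (42.9%) and 76 at E12.5 (52.1%). In those cells its median was 2441 against 965 TPM. At 1 TPM, where low values count, it was in 90.5% and 75.3% of cells. Its ratio was 1.01 and its difference -0.15, so it was not called. Pf4, platelet factor 4, reached 100 TPM in 56 cells (44.4%) and 76 cells (52.1%), with medians of 8672 and 3385 TPM in them, and 10 TPM in 53.97% and 54.8%. For Mrc1 the share at 100 TPM was near equal, 59.5% and 58.9%, with medians of 2188 and 1223 TPM in those cells. A mean over cells joins the number of cells with a gene and the level in them, which the counts at 100 TPM describe apart.

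Microglial and border genes ranked cells in opposite order at E16.5 more than at E12.5. At E16.5 47 cells held Olfml3, a secreted glycoprotein of microglia, alone at 100 TPM (37.3%, 95% exact interval 28.9 to 46.4), 52 F13a1 alone (41.3%, 32.6 to 50.4), 2 both (1.59%, 0.193 to 5.62) and 25 neither (19.8%, 13.3 to 27.9). At E12.5 25 cells held Olfml3 alone (17.1%, 11.4 to 24.2), 68 F13a1 alone (46.6%, 38.3 to 55.01), 8 both (5.48%, 2.40 to 10.51) and 45 neither (30.8%, 23.5 to 38.99). Cells with both were few at each age, and the 2 intervals of their share overlap. Olfml3 and Lyve1 shared 0 cells at either age, and Sparc and Pf4 shared 3 and 2. By these counts at 100 TPM P2ry12 and Mrc1 did not part in this way, and 38 E16.5 (30.2%) and 39 E12.5 cells (26.7%) held both. These pairs were chosen after their values were seen, and the other pairs below likewise.

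**Figure D3:**
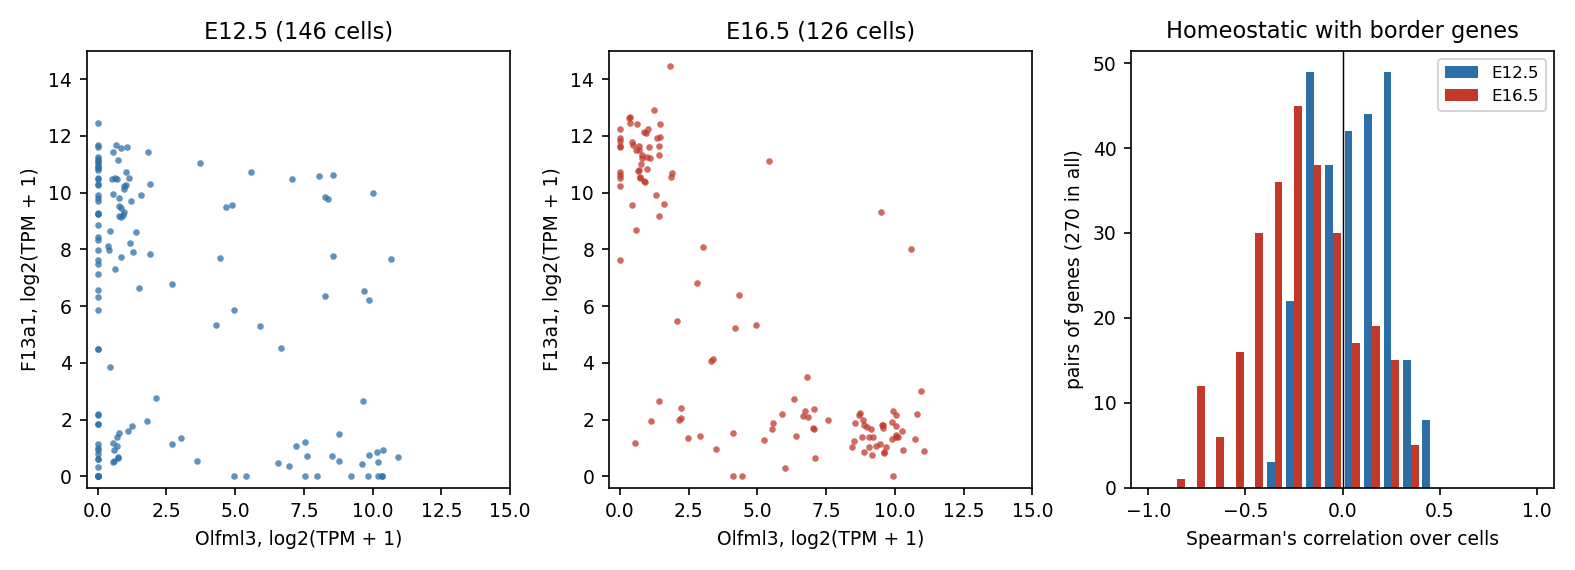
Left and middle, Olfml3 (x axis) against F13a1 (y axis) in log2(TPM + 1), 1 point per cell, at E12.5 and E16.5. At E16.5 most cells form a group high in Olfml3 alone and a group high in F13a1 alone, whereas at E12.5 more cells are low in both and 8 hold both at 100 TPM. Right, Spearman's correlation over cells (x axis) for 270 pairs of a homeostatic and a border gene (y axis, number of pairs); the median is -0.22 at E16.5 and 0.06 at E12.5.

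The difference between the ages was plainer in correlations across the 2 lists. Spearman's correlation over cells was taken for 18 homeostatic and 15 border genes present in at least 20% of cells at each age, as a description with no test, since all genes of a cell share its library and depth. Between the lists the median correlation of 270 pairs was -0.22 at E16.5, with 79.3% of pairs below 0, and 0.06 at E12.5, with 41.5% below 0. The correlation was lower at E16.5 in 90.7% of the 270 pairs. The pair of Olfml3 and Lyve1 gave -0.77 and -0.16, Olfml3 and F13a1 -0.74 and -0.26, and Sparc and Pf4 -0.72 and -0.22. P2ry12 and Mrc1, which often shared cells at 100 TPM, gave -0.39 and 0.05. Within the lists the ages were closer: the median was 0.30 at both ages among homeostatic genes, and 0.41 and 0.35 among border genes. Lyve1 and Mrc1, for example, gave 0.71 and 0.54. In cells with 2000 to 5000 genes the medians between the lists were -0.24 and -0.04.

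The chemokine genes called were higher at E16.5. Of 16 measured chemokine ligand genes 8 were higher and 0 lower. The list had a median ratio of 1.92 and a median difference of 0.52. Ccl2, which attracts monocytes through Ccr2 (chromosome 11, 82035571 to 82037453, plus strand), ranged from 0 to 15988 TPM with a median of 28.7 at E16.5 and from 0 to 5544 with a median of 0 at E12.5. It reached 100 TPM in 59 and 41 cells, with medians of 2307 and 1066 TPM in those. Ccl12, a related ligand, reached 100 TPM in 51 and 30 cells, Ccl3 in 64 and 51, Ccl4 in 37 and 21, and Ccl7 in 24 and 14. These counts were higher at E16.5 for each of these 5 genes although fewer cells were sampled. Ccl6, Ccl9 and Ccl24 were not called, at 338 and 255.5 TPM, 156.2 and 138.7 TPM, and 64.4 and 54.1 TPM.

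Chemokine genes did not move as 1 block from cell to cell. At E16.5 Ccl2 and Ccl4 gave a correlation of 0.05 and shared 18 cells at 100 TPM, while Ccl3 and Ccl4 gave 0.29 and shared 27. Il1a, the interleukin 1 alpha gene and the 1 called member of 11 measured cytokine ligands, reached 100 TPM in 18 E16.5 and 2 E12.5 cells, and 12 of those 18 also held Ccl4 at 100 TPM.

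Of 12 measured chemoattractant receptors 1 was higher and 2 were lower. Ccr1, a receptor of several inflammatory chemokines, averaged 101.3 and 244.98 TPM and reached 100 TPM in 13.5% and 39.7% of cells. Ccr2 averaged 15.9 and 75.6 TPM and reached 100 TPM in 2 and 19 cells. Receptors for cytokines were mixed, with 4 higher and 3 lower of 26, but 1 and 5 of 24 in cells with 2000 to 5000 genes. Il6st, the shared interleukin 6 receptor subunit, averaged 39.5 and 16.2 TPM, and Csf2rb, the shared beta chain of the GM-CSF receptor, 30.04 and 77.98 TPM. Csf1r itself averaged 783 and 716 TPM, in 99.2% and 95.2% of cells.

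Some feedback genes of NF-kB, a transcription factor activated by inflammatory signals, were higher while its subunits were mostly not called. Of 21 measured members 7 were higher and 0 lower, or 6 and 2 in cells with 2000 to 5000 genes. Nfkbiz, an inducible nuclear inhibitor, had medians of 26.8 and 0.60 TPM and was present in 84.1% and 45.9% of cells (difference 2.53). Nfkbia, which holds NF-kB in the cytoplasm and is induced by it, had medians of 21.8 and 0 TPM and means of 184.1 and 48.9 TPM. Tnfaip3, the feedback inhibitor A20, averaged 115.5 and 47.1 TPM. The subunit genes Nfkb1 and Rela averaged 75.01 and 57.3 TPM and 78.2 and 46.3 TPM, with differences of -0.40 and -0.32.

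The promoter of Nfkbia is shown because its gene was among the called feedback genes and the letters GGGNNTTTC, part of an NF-kB consensus, were found in it on both strands (RefSeq, GRCm38.p6, chr12:55492618-55492897, minus strand, from 250 bases before to 30 after the start, capitals mark the matches).
Nfkbia: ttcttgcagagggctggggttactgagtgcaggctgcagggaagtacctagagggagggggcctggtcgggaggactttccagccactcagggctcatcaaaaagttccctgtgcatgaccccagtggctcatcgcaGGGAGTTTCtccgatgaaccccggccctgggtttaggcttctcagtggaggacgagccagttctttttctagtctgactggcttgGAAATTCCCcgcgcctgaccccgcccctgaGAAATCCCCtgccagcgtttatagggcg
Windows from 250 bases before to 50 after the start were searched on both strands. The letters were in 4.36% of all 32851 windows, in those of 2 of the 4 higher NF-kB genes that had a window (Nfkbia and Tnfaip3), and in none of the 3 higher chemokine genes that had one. Of members not called they were in 3 of 13 NF-kB and 4 of 7 chemokine windows. A match is a description of the sequence only.

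Immediate early genes, which respond within minutes to many stimuli and also to tissue dissociation, gave the highest share of calls. Of 22 measured members 16 were higher and 0 lower, with a median ratio of 0.97 and a median difference of 1.10, and 10 and 0 in cells with 2000 to 5000 genes. Btg2, an antiproliferative factor, had medians of 267.8 and 30.6 TPM. Dusp1, a phosphatase that switches off MAP kinases, had medians of 363 and 55.3 TPM and means of 601 and 240 TPM. Jun, a subunit of the transcription factor AP-1, had medians of 90.7 and 23.6 TPM and averaged 135.3 and 49.1 TPM. Zfp36l1 and Zfp36, which destabilise messenger RNAs, averaged 188.9 and 52.7 TPM and 449 and 230 TPM. The heat shock members Hspa5 and Hsp90aa1 were not called, at 583 and 601 TPM and 502 and 520 TPM. How the cells of each age were dissociated is not given separately, and its part in these values was not tested. The AP-1 letters TGACTCA were in 5.20% of all windows and in none of the 15 higher members that had one.

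**Figure D4:**
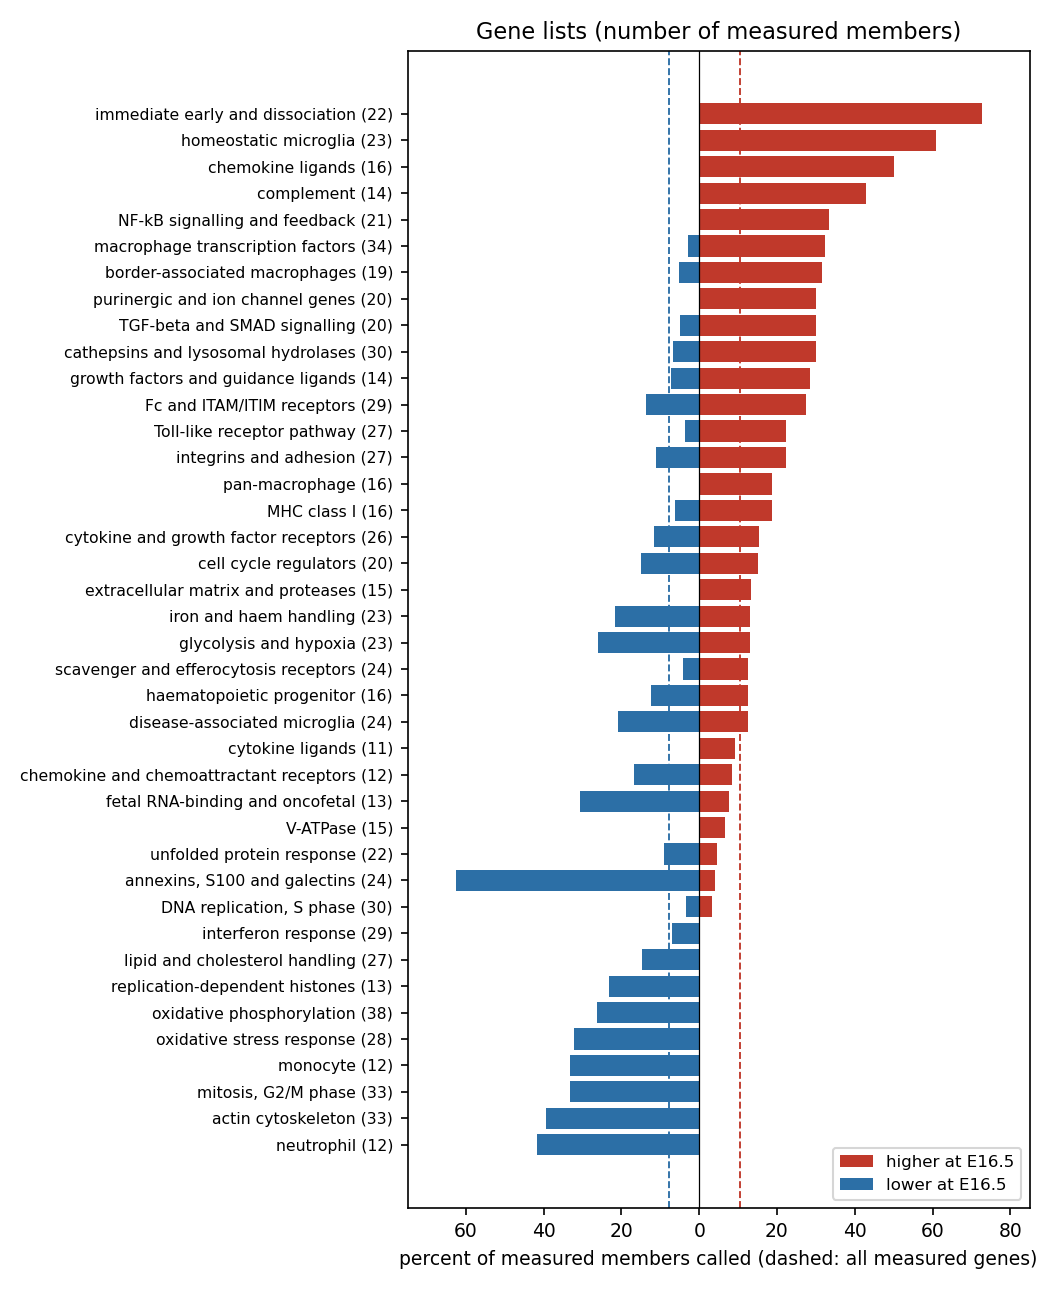
Percent of measured members called higher (red, to the right) and lower (blue, to the left) at E16.5 for each gene list with 11 or more measured members, whose number is in parentheses. Dashed lines mark the shares over all measured genes, 10.4% higher and 7.89% lower. Immediate early, homeostatic and chemokine genes reach farthest to the right, and annexins, S100 and galectins farthest to the left.

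Receptors of innate recognition were mixed. Of 27 measured Toll-like receptor pathway genes 6 were higher and 1 lower. Tlr2, which binds bacterial lipopeptides, averaged 90.3 and 30.3 TPM, Tlr3, a sensor of double-stranded RNA, 13.3 and 1.24 TPM in 34.1% and 6.2% of cells at 1 TPM but 4 and 1 cells at 100 TPM, and Tlr7, a sensor of single-stranded RNA, 55.7 and 21.9 TPM. Myd88, the adaptor that most of these receptors share, was the lower member at 46.98 and 90.6 TPM. Of 29 measured Fc, ITAM and ITIM receptor genes 8 were higher and 4 lower, or 4 and 5 in cells with 2000 to 5000 genes.

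Inhibitory receptors went both ways within that list. Cd72 averaged 121.4 and 9.66 TPM (difference 1.28) and Lair1, a collagen receptor, 299 and 141.1 TPM (1.56). Lilrb4 averaged 85.9 and 281 TPM and reached 100 TPM in 10 and 39 cells, and Pirb averaged 12.1 and 61.4 TPM. The signalling adaptors Fcer1g and Tyrobp were near equal, at 3644 and 3342 TPM and 4035 and 3552 TPM. Of 29 measured interferon response genes 0 were higher and 2 lower, below both background shares. In cells with 2000 to 5000 genes 0 and 7 were, against 1040 and 1349 of 11394 over all measured genes. By the ratio alone 9 and 6 were, against 4144 and 2608 of 11797.

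Complement genes were higher in 6 of 14 measured members and lower in 0, or in 3 and 1 in cells with 2000 to 5000 genes. C1qa and C1qc, chains of the initiating complement protein C1q, had medians of 408 and 143.9 TPM and 558 and 218.2 TPM. C1qb, the third chain, averaged 3707 and 2724 TPM with a ratio of 0.44 and a difference of 1.68, so it passed on 1 scale alone. Among 16 measured MHC class I genes 3 were higher and 1 lower, but 0 and 2 in cells with 2000 to 5000 genes and 1 and 3 of 12 with the 5 highest cells left out. H2-K1, which presents peptides, averaged 809 and 391 TPM, and Erap1, the peptide-trimming protease, 9.91 and 34.1 TPM. Cd74, the invariant chain of class II molecules, was called lower, at 6.12 and 22.7 TPM.

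Most lysosomal genes were not called. Of 30 measured cathepsins and hydrolases 9 were higher and 2 lower, or 5 and 3 in cells with 2000 to 5000 genes. Lgmn, the protease legumain, had medians of 2473 and 1158 TPM and its lowest cell stood at 17.9 TPM at E16.5 and 0 at E12.5. Ctsl, cathepsin L, averaged 995 and 444 TPM. The 2 lower members were Lyz2, lysozyme, with medians of 156.4 and 855 TPM and a highest E12.5 cell of 61060 TPM, and Ctsc, cathepsin C, with means of 714 and 1214 TPM. Ctsb and Ctsd, the most abundant proteases, averaged 3194 and 3039 TPM and 3318 and 2508 TPM without a call.

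The called genes of lipid handling were lower. For iron handling the share called higher was near that of all measured genes, 10.4%, and the share called lower was above that of all, 7.89%. Of 27 measured lipid genes 4 were lower and 0 higher, and 8 and 0 in cells with 2000 to 5000 genes. Lpl, lipoprotein lipase, had medians of 25.6 and 90.005 TPM and reached 100 TPM in 22 and 70 cells. Plin2, the coat protein of lipid droplets, had medians of 118.7 and 642 TPM, and Apoc1, an apolipoprotein, reached 100 TPM in 11 and 43 cells. Apoe averaged 3751 and 4249 TPM with a difference of 0.01. Of 23 iron and haem genes 3 were higher and 5 lower. Among the lower, Hmox1, which degrades haem, averaged 90.6 and 396 TPM and Fth1, the ferritin heavy chain, 1442 and 2822 TPM. Slc11a1, an iron transporter of phagosomes, averaged 101.5 and 242.6 TPM. The higher included Cp and Cd163, which were also counted among the border genes. Of 24 measured genes that adult microglia raise in disease 3 were higher and 5 lower. By the ratio alone 7 and 5 were, against 4144 and 2608 of all 11797 measured genes. Spp1, osteopontin, was among the higher at means of 466 and 75.6 TPM, but 8 cells reached 100 TPM at each age and the ratio was -0.29 with the 5 highest cells left out.

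The lower list with the highest share of calls was that of annexins, S100 proteins, galectins and their companions. Of 24 measured members 15 were lower and 1 higher, with a median ratio of -1.10 and a median difference of -1.31. Without the marked cells 12 of 21 were lower and 0 higher. Lgals1, galectin 1 (chromosome 15, 78926725 to 78930465, plus strand), had a median of 2.15 TPM at E16.5 and 444 at E12.5, and reached 100 TPM in 34.9% and 70.5% of cells. Among those cells the medians were 586 and 739 TPM, so the ages differed more in the number of cells than in their level. Vim, the intermediate filament vimentin (chromosome 2, 13573927 to 13582826, plus strand), had medians of 0 and 14.4 TPM and reached 100 TPM in 9 and 49 cells (difference -3.17).

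Several other members were also found in fewer E16.5 cells, and their levels in those cells were not compared. Anxa1, a phospholipid-binding anti-inflammatory protein, was at 1 TPM or more in 6.3% of E16.5 cells (2.8 to 12.1) and 37.7% of E12.5 cells (29.8 to 46.1). Capg, an actin-capping protein, reached 100 TPM in 6 and 37 cells, and Lsp1, an actin-binding protein of leukocytes, in 28 and 67. Lgals3 was present in 2.4% and 24.7% of cells. Anxa3, another annexin, averaged 377 and 288 TPM and was not called.

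**Figure D5:**
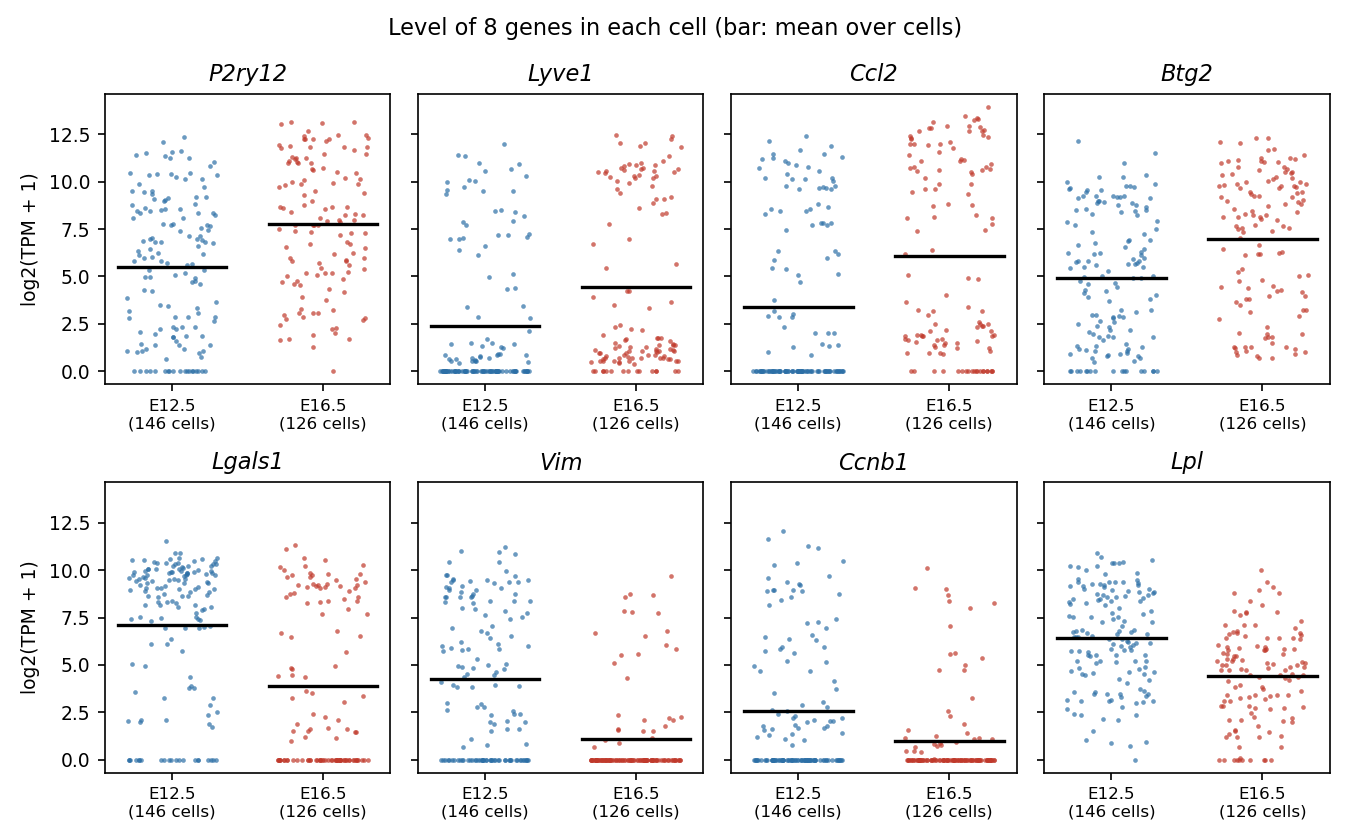
Level of 8 genes in log2(TPM + 1) (y axis), 1 point per cell, at E12.5 (blue) and E16.5 (red); bars are means over cells. P2ry12, Lyve1, Ccl2 and Btg2 have more high cells at E16.5 and Lgals1, Vim, Ccnb1 and Lpl more at E12.5, and the ages overlap in each gene.

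Genes of the actin cytoskeleton were lower in 13 of 33 measured members and higher in 0, and in 9 and 0 without the marked cells. Iqgap1, a scaffold of the leading edge, had medians of 8.36 and 97.6 TPM, Actr3, a subunit of the Arp2/3 complex that branches filaments, 33.98 and 362 TPM, and Rac2, a haematopoietic small GTPase, 42.7 and 303 TPM. Tmsb10, which binds actin monomers, averaged 29.1 and 87.7 TPM. The far more abundant Actb and Tmsb4x were not called, at 12936 and 17651 TPM and 6035 and 7706 TPM.

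Adhesion genes split. Of 27 measured members 6 were higher and 3 lower, or 5 and 5 in cells with 2000 to 5000 genes. Cd81, a tetraspanin, averaged 816 and 312 TPM, Itga9, an integrin chain, 54.7 and 14.6 TPM, and F11r, a junctional adhesion molecule, 226.6 and 115.7 TPM. Cd44, the hyaluronan receptor of migrating leukocytes, averaged 29.6 and 93.04 TPM and reached 100 TPM in 12 and 40 cells, and Emb, embigin, averaged 12.6 and 75.1 TPM.

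Genes of oxidative phosphorylation were lower in 10 of 38 measured members and higher in 0, with a median ratio of -0.35 and a median difference of -1.12. By the difference alone 32 were lower. Uqcrc1, a core subunit of complex III, had medians of 2.46 and 85.8 TPM, Cox5b, a subunit of complex IV, 2.35 and 75.8 TPM, and Cox5a, another, 0 and 39.5 TPM. Atp5b and Cox4i1 averaged 560 and 706 TPM and 829 and 930 TPM without a call. These are short genes, with a median longest transcript of 1186.5 bases against 2274.5 for all genes called higher and 2306 for those called lower. In the shortest quartile of measured genes 15.8% were higher and 9.73% lower, and in the longest 8.61% and 4.80%. Without genes under 200 bases the list gave 10 lower and 0 higher as well.

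Some glycolytic genes and antioxidant enzymes were lower too. Of 23 glycolysis and hypoxia genes 6 were lower and 3 higher, or 6 and 7 by the ratio alone: Eno1, enolase, had medians of 205.1 and 710 TPM, Aldoa, aldolase, averaged 517 and 979 TPM, and Pgk1, phosphoglycerate kinase, 198.4 and 440 TPM, while P4ha1, a collagen-modifying hydroxylase, averaged 86.7 and 32.04 TPM. Of 28 oxidative stress genes 9 were lower and 0 higher, among them Gpx1, a glutathione peroxidase, at 971 and 2062 TPM, Prdx6, a peroxiredoxin, at 60.7 and 167.7 TPM, and Gstp1, a glutathione transferase, at 145.3 and 284 TPM.

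The mitotic genes called were lower and replication genes mostly not called. Of 33 measured G2 and M phase genes 11 were lower and 0 higher, with a median ratio and a median difference of -0.62. Without the marked cells 7 were lower and 0 higher. Ccnb1, a cyclin that drives entry into mitosis (chromosome 13, 100778650 to 100786570, minus strand), reached 100 TPM in 8 cells at E16.5 and 25 at E12.5, and Ccnb2 in 7 and 38. Birc5, survivin, reached it in 16 and 47 and Cdca8, its partner in the chromosomal passenger complex, in 13 and 28. In the cells at 100 TPM the median of Ccnb1 was 371 and 498.98 TPM. Spearman's correlation of Ccnb1 and Ccnb2 over cells was 0.26 at E16.5 and 0.53 at E12.5. Cdk1 and Top2a averaged 169.4 and 205.97 TPM and 133.7 and 171.1 TPM without a call.

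Promoters of the 2 B-type cyclins are shown because mitotic genes often carry CCAAT boxes, bound by NF-Y, and the TTTGAA element of cell cycle genes (RefSeq, GRCm38.p6, minus strand, 250 bases before to 30 after the start, Ccnb1 at chr13:100786457-100786736 and Ccnb2 at chr9:70421525-70421804, capitals mark CCAAT and TTTGAA on the strand shown or its complement).
Ccnb1: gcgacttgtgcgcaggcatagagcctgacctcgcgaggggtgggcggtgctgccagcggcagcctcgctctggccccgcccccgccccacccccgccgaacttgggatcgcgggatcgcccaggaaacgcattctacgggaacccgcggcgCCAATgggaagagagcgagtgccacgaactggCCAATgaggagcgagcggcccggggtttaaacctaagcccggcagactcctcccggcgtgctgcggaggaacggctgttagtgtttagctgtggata
Ccnb2: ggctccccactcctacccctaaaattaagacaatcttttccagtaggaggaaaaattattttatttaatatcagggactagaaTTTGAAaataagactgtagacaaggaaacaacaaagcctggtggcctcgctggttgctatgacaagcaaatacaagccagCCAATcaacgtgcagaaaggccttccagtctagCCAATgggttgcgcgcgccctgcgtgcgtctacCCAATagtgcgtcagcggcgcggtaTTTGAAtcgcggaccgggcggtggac
The stretch of Ccnb1 held CCAAT at 2 places and that of Ccnb2 held CCAAT at 3 and TTTGAA at 2, with no overlap between motifs. Of 10 lower mitotic genes with a window 9 held CCAAT and 8 TTTGAA, and of 19 not called 14 held each. Over all windows the shares were 37.4% and 17.9%.

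Of 30 measured S phase genes 1 was higher and 1 lower, or 0 and 6 in cells with 2000 to 5000 genes and 0 and 3 after scaling to the median ratio. Pcna, the replication clamp, averaged 256.7 and 170.7 TPM and Mcm6, a subunit of the replicative helicase, 35.96 and 62.5 TPM. Pola1, a subunit of the DNA polymerase alpha-primase complex, was the higher member at 21.9 and 13.05 TPM. Cell cycle regulators gave 3 higher and 3 lower of 20, or 0 and 3 after scaling to the median ratio: Ccnd3, a G1 cyclin, averaged 8.53 and 36.8 TPM and Cdk4, its kinase, 260.7 and 419 TPM, while Btg1, an antiproliferative factor, averaged 644 and 379 TPM. Of 13 measured histone genes 3 were lower and 0 higher, or 1 and 0 without the marked cells.

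Fetal RNA-binding genes were lower in 4 of 13 measured members and higher in 1. Igf2bp1 and Igf2bp3, which bind fetal messenger RNAs, were at 1 TPM or more in 37.3% and 65.1% of cells and in 30.95% and 55.5%, and at 100 TPM in 1 and 2 cells and in 4 and 13. Hmga1, a chromatin protein of immature cells, averaged 33.4 and 52.4 TPM. Of 16 progenitor genes 2 were higher and 2 lower: Lmo2, a haematopoietic regulator, averaged 98.7 and 31.3 TPM and Cd34 26.4 and 47.5 TPM.

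Cells with genes of other blood lineages were found mainly at E12.5. Of 12 measured neutrophil genes 5 were lower and 0 higher. Without the marked cells named above 5 were still measured and 0 called. S100a8, a subunit of calprotectin, was at 0 in every E16.5 cell and was found in 26.03% of E12.5 cells, 9 of them at 100 TPM or more. The neutrophil list summed to at most 1810 TPM in an E16.5 cell and to 353349 TPM in an E12.5 cell, and 0 and 7 cells held 3 of its members at 100 TPM. Of 12 monocyte genes 4 were lower and 0 higher, and 1 of 8 was lower without the marked cells. Members of these same lists defined the marked cells, so the loss of calls was largely set by that choice and shows nothing further. At least 3 monocyte genes at 100 TPM were found in 1 E16.5 and 15 E12.5 cells. Mast cell genes did so in 0 and 3 cells, with Cpa3, a mast cell protease, at up to 13132 TPM at E12.5. Of 14 endothelial genes 4 were at 0 in every E16.5 cell and 5 in every E12.5 cell, Cldn5 at both ages, and the list summed to at most 1643 and 509.9 TPM in a cell. The 13 mural and fibroblast genes summed to at most 87.2 and 97.7 TPM, with Col3a1 at 0 throughout. The 16 neuron genes had median sums of 250.3 and 536 TPM and highest sums of 8801 and 8894 TPM, and 0 and 1 cells held 3 of them at 100 TPM. Their part in the results was not tested.

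Several genes outside the macrophage lists were present in nearly all E16.5 cells. Calb1, the calcium-binding protein calbindin (chromosome 4, 15881264 to 15908064, plus strand), was at 1 TPM or more in 97.6% of E16.5 cells (93.2 to 99.5) and 16.4% of E12.5 cells (10.8 to 23.5), and at 100 TPM in 95.2% and 14.4%. Its medians were 612 and 0 TPM and its highest cells 514225 and 120240 TPM. Zfp260, a zinc finger protein, had medians of 523 and 3.73 TPM and Prr15, a proline-rich protein, 98.7 and 0 TPM. Pax6, a neural progenitor factor and a member of the neural progenitor list, reached 1 TPM in 96.8% and 20.5% of cells but 100 TPM in only 21.4% and 13.7%. Its medians were 47.3 and 0 TPM, although its mean was 182.002 against 2759 TPM with an E12.5 cell at 182225 TPM, so its measures had opposite signs and it was not called. Calb1 and Pax6 gave a correlation of 0.67 at E16.5 and 0.65 at E12.5, and at E12.5 each was lower in cells with more genes (correlations of -0.52 and -0.50 with the genes per cell).

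Shares of cells at 1 TPM or more were at least 50 points higher at E16.5 for 74 genes (0.627% of those measured) and at least 50 points lower for 6 (0.0509%). Of the 80 genes 54 were predicted, mitochondrial or ribosomal and 27 were under 200 bases, all 27 among the higher. Low values were somewhat more frequent at E16.5: of the measured genes at 1 TPM or more in a cell, a median of 35.6% lay under 10 TPM, against 30.9% at E12.5. A share at 1 TPM therefore counts many low values.

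Further genes outside the lists were higher: Appl2, an endosomal adaptor (223.7 and 45.6 TPM, difference 2.78), Sdc4, the proteoglycan syndecan 4 (517 and 207.7 TPM, 2.28), and Serpine2, a protease inhibitor (321 and 134.03 TPM, 2.15). Those lower included Atp11a, a phospholipid flippase, in 20.6% and 93.8% of cells at 1 TPM but 1 and 10 cells at 100 TPM (difference -3.26), Emp3, a membrane protein (198.1 and 383 TPM, -2.82), Glrx, a glutaredoxin (47.8 and 136.3 TPM, -2.70), Tspo, a mitochondrial outer membrane protein (50.6 and 211.5 TPM, -2.57), and Gsn, the actin-severing protein gelsolin (16.8 and 87.5 TPM, -2.24). Cks1b, a cofactor of cyclin-dependent kinases, averaged 70.03 and 160 TPM. The proteasome genes Psmb3 and Psmb5 averaged 171.6 and 389 TPM and 64.4 and 202.1 TPM.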

How the data were processed

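Expression came as TPM, in 1 table that the authors deposited. RSEM 1.2.19, Seurat and GRCm38 are listed per the submitters' processing notes, and the aligner, annotation and read length were not given in the sources used here. TPM keeps no depth. Columns were matched to cells by title; 1345 other columns were not used here.

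Means, mean log2(TPM + 1), shares at 1 TPM or more (exact Clopper-Pearson 95% intervals, counting error over cells only) and calls were computed with Python 3.11.15, numpy 2.4.6, pandas 2.3.3 and scipy 1.17.1, and plots with matplotlib 3.10.9. A fold on values with 1 TPM added understates that of low genes. No doublet caller was run. The calculation was checked on resampled E12.5 cells with known fold changes put into some genes. Unchanged genes had the same values on both sides there. The check therefore could not show how often the rule calls genes between different sets of cells. Strand use in counting is not given, so overlapping genes and near-identical copies are uncertain. Lengths and positions came from GENCODE M21 (96.2% of measured genes matched) and promoters from RefSeq.

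The comparison and the gene lists were chosen with earlier results of these data known. Per list, up to 6 called members of largest difference and 3 uncalled members of highest mean could be named, and outside the lists 20 genes per direction, without mitochondrial, ribosomal and predicted genes (clone names were added to these after seeing the data). Members of the sort, sex, macrophage and other cell type lists could be named as checks. Olfml3, mt-Ts1 and the pairs of genes were chosen after their values were seen. For 5 list entries no entry of that name was used (H2-L, Flvcr1, Hbb-b1, Hbb-b2 and Ahsp).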

Additional observations from a re-analysis of the deposited data

How the results depend on the processing

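Each age is 1 sample, so no replicate could be left out. No paired analysis was possible, since no embryo, litter or preparation is named by which cells could be paired. The count of genes called higher (1222) became 4144 by the ratio alone and 783 with a minimum mean of 20 TPM. The count called lower (931) became 2608 by the ratio alone, 1948 by the difference alone and 1491 with the 5 highest cells left out. Other alternatives were pseudocounts of 0.1 and 10 TPM, no filter, and cells with at least 1000 or with 2000 to 5000 genes. The marked cells were also left out, and the ages scaled to the median ratio. A further 2 were chosen after seeing the data: no genes under 200 bases, and values under 10 TPM set to 0. Under all of these both counts were within 1.5 times of those above. The genes called could still change. In cells with 2000 to 5000 genes 769 of the 1222 higher and 684 of the 931 lower genes were called again. Without the marked cells 1144 and 766 were. Among the genes named that were called, the ratio changed sign for Spp1 with the 5 highest cells left out (-0.29) and for Pola1 in cells with 2000 to 5000 genes (-0.016). Several genes named but not called, Pax6, F13a1, Trem2, Nfkb1 and Rela among them, had a ratio and a difference of opposite sign. The cause was not tested. Shares of cells depend on the level that counts as present, and TPM keeps no depth with which to set it.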
